A study of Mus musculus with 12 samples.

Results

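Microglia are the resident macrophages of the central nervous system, the retina included, and in the resting state they survey the plexiform layers with fine processes. In that state they express a characteristic set of genes, and 9 of these were followed here: P2ry12, P2ry13, Gpr34, Csf1r, Tmem119, Siglech, Fcrls, Olfml3 and Sall1. They were chosen by symbol as markers of homeostatic microglia, and all 9 were found among the 25655 genes of the deposited tables. Signalling from CSF1 and IL-34 through CSF1R keeps microglia alive, and TGF-beta together with factors such as SALL1 maintains their resting identity. After nerve injury, activated microglia typically lower many of these genes.

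The study asked how retinae respond to fluvastatin, an HMG-CoA reductase inhibitor of the statin class, and to matrix-bound nanovesicles (MBV), vesicles prepared from porcine urinary bladder. C57BL/6J mice, 8 to 10 weeks old by the labels, had the left optic nerve crushed (ONC) in all 4 groups and then received an intravitreal injection of PBS, fluvastatin, MBV or both agents. Whole retinae were collected 2 days later, with 3 samples in each group, and total RNA was sequenced. The number of retinae in a sample is not given in the sources used here, and no uninjured retina is among the samples, so the values below are those of an injured retina throughout.

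Counts were analysed for 9 of the 12 libraries, 3 each after PBS, fluvastatin and MBV. The 6 count columns in the table of the combined treatment carry no library name, so that group was not analysed here. The library totals ranged from 26325065 to 30992040 counts after PBS, from 23634662 to 27098889 after fluvastatin and from 21349516 to 26738043 after MBV. Library numbers in the labels form 2 sets. PBS lies in one and both single treatments in the other, so for either treatment against PBS a difference between sets cannot be told apart from one of treatment, whereas MBV and fluvastatin share a set. Photoreceptor and other retinal markers were abundant in every library, with a summed level over 10 of them of 34899 to 37933 CPM after PBS, 29086 to 31622 after fluvastatin and 22267 to 31873 after MBV, so that both treatments lay below PBS. CPM is the count scaled to the library total multiplied by its TMM factor. Markers of other cells also moved with the groups. Summed over 8 pigment epithelium markers the level was 123.2 to 161 CPM after PBS, 70.5 to 82.3 after fluvastatin and 47.5 to 98.7 after MBV. These markers did not all move together. With either treatment, edgeR gave 6 of the 8 a log2 fold change below 0 against PBS and 2 above, among them Rgr. Over 8 lens markers the summed level was 1.98 to 6.47 CPM after PBS, 2.88 to 21.5 after fluvastatin and 60.8 to 160 after MBV. The part of these cells in the results below was not tested.

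All 9 members had counts in all 9 libraries, from 33 to 727, so none depended on a filter for low values. Counting alone then gives each value an error between 3.71% and 17.4%, before any difference between animals. The members are minor transcripts of the whole retina. Per kilobase of exon, the PBS means ran from 0.429 CPM for Sall1 to 2.90 for Csf1r, and 28.1% to 52.7% of the 18349 genes with a level had a lower one. Since RNA came from the whole tissue, fewer microglia and less RNA per microglial cell cannot be told apart in any of the comparisons.

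To show the DNA in front of some members, the 250 bases before the transcription start of 3 of them are given from RefSeq (GRCm38.p6). P2ry12 and P2ry13 are neighbours on chromosome 3 and are printed because their levels differed in direction below, and Fcrls because it holds the same motif as P2ry13. All 3 lie on the minus strand, at chr3:59262986-59263235, chr3:59210883-59211132 and chr3:87263525-87263774 in that build, and are written 5′ to 3′. Capitals mark GAGGAAG, a core sequence bound by PU.1, the factor that sets up macrophage and microglial gene expression.
P2ry12: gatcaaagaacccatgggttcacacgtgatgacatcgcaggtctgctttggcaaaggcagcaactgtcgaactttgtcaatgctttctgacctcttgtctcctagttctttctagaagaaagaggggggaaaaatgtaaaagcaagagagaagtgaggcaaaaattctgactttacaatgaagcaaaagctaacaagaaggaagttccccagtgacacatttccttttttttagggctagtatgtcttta
P2ry13: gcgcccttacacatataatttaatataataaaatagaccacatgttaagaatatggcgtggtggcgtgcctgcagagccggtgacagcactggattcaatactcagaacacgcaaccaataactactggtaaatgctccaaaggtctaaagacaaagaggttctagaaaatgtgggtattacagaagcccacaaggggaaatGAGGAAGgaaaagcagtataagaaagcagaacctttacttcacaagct
Fcrls: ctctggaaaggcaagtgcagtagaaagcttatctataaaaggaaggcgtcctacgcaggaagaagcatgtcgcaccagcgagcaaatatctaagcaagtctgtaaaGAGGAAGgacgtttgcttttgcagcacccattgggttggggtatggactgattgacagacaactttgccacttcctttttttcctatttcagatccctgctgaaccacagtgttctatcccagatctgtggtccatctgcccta
Both strands were searched. GAGGAAG began 48 bases before the start of P2ry13 and 144 bases before that of Fcrls, and these letters were not found in the P2ry12 window. The table held 8 windows for 6 members (3 of them for Sall1), and 2 of the 8 held the motif, as did 10.6% of 32851 windows of all genes. The AP-1 site TGANTCA (6.75% of all windows), a PU.1-IRF composite element (2.30%) and a MEF2 element (3.20%) were in none of the 8. No match says only that these letters are not in these windows. Gpr34, Tmem119 and Csf1r had no entry.

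Of the homeostatic genes, Gpr34 fell after fluvastatin compared to PBS in edgeR, where it was the only one of the 9 members to pass an FDR of 0.05. DESeq2 called 0 of 9, with 2 at an unadjusted p under 0.05. In edgeR 4 members had a log2 fold change above 0 and 5 below, and the median was -0.07 against -0.01 over all genes. The share of members called, 1 of 9, stands beside 19.6% of the 18818 genes tested in edgeR's quasi-likelihood test, and beside 10.2% for genes that were lower. With MBV 0 of 9 passed, beside 26.1% of 18897 genes, although 2 had an unadjusted p under 0.05 in edgeR (0 in DESeq2, which also called 0 of 9). The median after MBV was -0.00 (all genes 0.01). Between MBV and fluvastatin 0 of 9 passed, beside 0.0588% of 18721 genes. There 1 member had an unadjusted p under 0.05 in edgeR and 0 in DESeq2, and DESeq2 called 0 of 9. With a fold change of at least 2 asked for as well, 0 of 9 passed in any comparison, beside 1.17% of genes after fluvastatin, 1.95% after MBV and 0.0107% between both. The share of members called lower after fluvastatin (11.1%) was thus near that of all genes, and in the other comparisons no member was called.

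**Figure D1:**
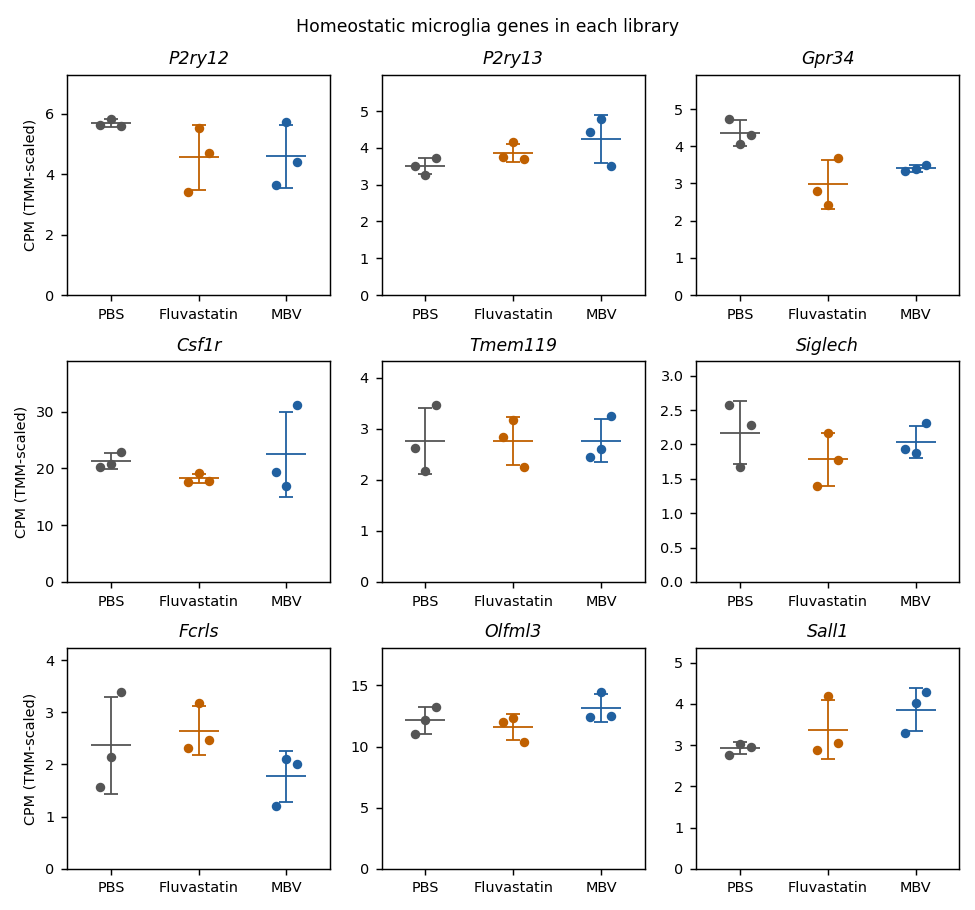
Level of each homeostatic microglia gene in CPM (y axis, linear from 0) in the 3 libraries of each group (x axis), with points for libraries and bars for the mean ± SD. Gpr34 lies at 4.06 to 4.74 after PBS and below that range after fluvastatin and MBV, and 1 MBV library stands at 31.1 for Csf1r.

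Of the receptors, Gpr34 senses lysophosphatidylserine, a lipid released by damaged cells, and lies on the X chromosome (13498328 to 13507097 of GRCm39). Its level was 4.74, 4.06 and 4.29 CPM after PBS, 2.80, 2.43 and 3.69 after fluvastatin and 3.33, 3.38 and 3.51 after MBV. Every treated library was below every PBS library. With fluvastatin Gpr34 was 1.47-fold lower than after PBS (log2 fold change -0.56, standard error 0.173, FDR 0.0458 in edgeR). This call did not hold in DESeq2 (log2 fold change -0.55, FDR 0.0616), nor in 5 of the 6 fits that left out a library, where the FDR was 0.0648 or more. With MBV Gpr34 had a log2 fold change of -0.37 (0.133 for its standard error, FDR 0.0720). MBV and fluvastatin overlapped, with a difference of 0.20 and a 95% interval of -0.22 to 0.62 on the log2 scale. Gpr34 lies in an intron of Cask, which is on the other strand, and shares 0 exon bases with it. Whether reads of unspliced Cask were counted for Gpr34 was not tested.

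P2ry12 encodes the ADP receptor that guides microglial processes to injury and is also found on platelets (chromosome 3, 59123693 to 59170292). The PBS libraries lay close together at 5.62, 5.83 and 5.58 CPM. With fluvastatin the levels were 3.42, 5.53 and 4.71, and after MBV 3.65, 5.71 and 4.41. All fluvastatin libraries were below the PBS range, while the second MBV library lay within it. The log2 fold change was -0.32 in both comparisons, with a standard error of 0.165 and an FDR of 0.214 for fluvastatin, and 0.164 and 0.183 for MBV. For MBV, edgeR gave -0.51 (FDR 0.0416) without the second MBV library and -0.18 (FDR 0.453) without the first. For fluvastatin it gave -0.48 (FDR 0.0945) without the second fluvastatin library and -0.15 (FDR 0.487) without the first.

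P2ry13, a second ADP receptor of microglia, lies next to P2ry12 (59115313 to 59118303). It had 3.51, 3.27 and 3.72 CPM after PBS, 3.75, 4.15 and 3.69 after fluvastatin and 4.42, 4.8 and 3.51 after MBV. The values overlapped between PBS and each treatment. The log2 fold change was 0.14 (95% interval -0.16 to 0.44, FDR 0.510) after fluvastatin and 0.27 (-0.09 to 0.62, FDR 0.250) after MBV. The counts of P2ry12 divided by those of P2ry13 in the same library do not depend on scaling. This ratio, chosen after the values were seen and given with no test, was 1.60, 1.78 and 1.5 after PBS, 0.912, 1.33 and 1.28 after fluvastatin and 0.826, 1.19 and 1.26 after MBV. The treated libraries were all below the PBS libraries. Both genes lie within Med12l on the other strand, and 294 exon bases of P2ry12 (9.2%) and 0 of P2ry13 overlap its exons. Med12l had 83.3 ± 3.89 CPM after PBS, 90.1 ± 5.85 after fluvastatin and 95.4 ± 5.45 after MBV (SD, n = 3 each). Its log2 fold change was 0.11 after fluvastatin (edgeR FDR 0.214) and 0.19 after MBV (FDR 0.0365). Whether the counting used strand is not given in the sources used here. Med12l reads in P2ry12, and reads of unspliced Med12l in P2ry13, thus cannot be told apart from those of the receptors.

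Csf1r, the receptor for CSF1 and IL-34, is carried by microglia and by monocytes and other macrophages (chromosome 18, 61233670 to 61265221). It was the most abundant member, with 20.3, 20.7 and 22.9 CPM after PBS. With fluvastatin it was 17.6, 19.2 and 17.9 CPM, below PBS in each library, with a log2 fold change of -0.23 (0.0731 for its standard error, FDR 0.0548). With MBV the values were 19.4, 17 and 31.1 CPM. The third MBV library stood above all others and the other two below the PBS range. The log2 fold change after MBV was 0.07 (95% interval -0.36 to 0.49, FDR 0.820), and without the third library -0.24 (FDR 0.0607). Against fluvastatin it was 0.30 (FDR 0.603), and -0.0026 (FDR 0.997) without that library. In 1 fit of all 9 libraries the FDR of Csf1r after fluvastatin was 0.414. Csf1r shares 1461 exon bases, 19.8% of its length, with Hmgxb3 on the other strand, which had 1084 to 1364 counts in the MBV libraries.

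The same MBV library was high in genes of blood-derived cells. Ccr2, the chemokine receptor of monocytes, had 65, 13 and 222 counts after MBV, against 8 to 40 after PBS and 12 to 32 after fluvastatin. Ly6c2 had 2, 1 and 67 counts after MBV and 0 to 2 elsewhere. Plac8 had 10, 1 and 75 and Chil3 3, 0 and 19 counts after MBV. The lysosomal protease gene Ctss, shared by microglia and monocytes, had 15.1, 11.8 and 28.2 CPM after MBV and 14.7 to 17.4 after PBS. None of Ccr2, Ly6c2, Plac8 and Chil3 was called with MBV against PBS (edgeR FDR 0.0787, 0.0684, 0.135 and 0.663). Over the 10 monocyte markers the summed level was 114 to 151 CPM after PBS, 135 to 143 after fluvastatin and 145 to 198 after MBV. Most of it came from Fn1 and Vcan. Vcan itself was lower with both (edgeR FDR 0.0314 and 0.0393). Its level was 21.5 ± 19.4 CPM after fluvastatin and 19.2 ± 19.6 after MBV, from 63.1 ± 9.53 after PBS (SD, n = 3 each). The part of monocytes in the Csf1r values was not tested. Among the MBV libraries this one was also the highest for Gpr34, Tmem119, Siglech and Sall1, and the lowest for P2ry13.

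**Figure D2:**
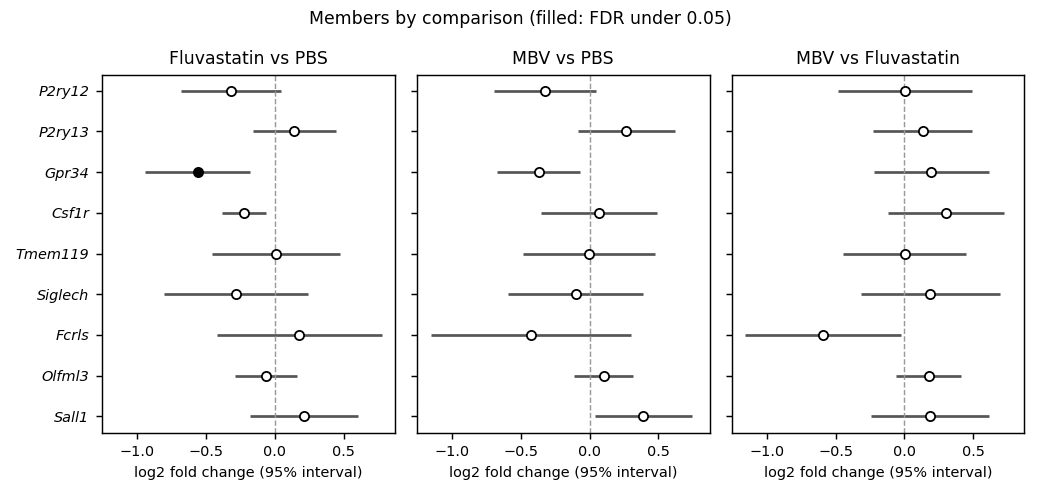
Log2 fold change of each member (points) with its 95% interval (lines) in 3 comparisons, from edgeR, with a dashed line at 0 and filled points for an FDR under 0.05. Gpr34 after fluvastatin is the single filled point, and its interval runs from -0.94 to -0.18.

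Tmem119, a transmembrane protein used to tell microglia from infiltrating macrophages (chromosome 5, 113931790 to 113938577), had nearly equal means in the 3 groups. It was 2.76 ± 0.646 CPM after PBS, 2.76 ± 0.471 after fluvastatin and 2.77 ± 0.426 after MBV (SD, n = 3 each). In single libraries it was 2.63, 2.18 and 3.46 after PBS, 2.84, 3.18 and 2.25 after fluvastatin, and 2.45, 2.6 and 3.25 after MBV. The 95% intervals of the log2 fold change were -0.46 to 0.47 after fluvastatin and -0.48 to 0.48 after MBV.

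Siglech, a sialic acid-binding lectin that signals through the adaptor DAP12 (chromosome 7, 55417926 to 55428673), had few counts, 34 to 79. It was 2.57, 1.67 and 2.28 CPM after PBS, 1.40, 2.17 and 1.78 after fluvastatin and 1.94, 1.87 and 2.31 after MBV. All groups overlapped. The log2 fold change was -0.28 (FDR 0.448) after fluvastatin and -0.10 (FDR 0.763) after MBV. For fluvastatin it ran from -0.45 without the second fluvastatin library to -0.13 without the first, with -0.44 and -0.14 without the second and the first PBS library.

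Fcrls, an Fc receptor-like gene of mouse microglia (chromosome 3, 87158065 to 87171045), varied most among the PBS samples. It was 1.56, 2.15 and 3.38 CPM after PBS, 2.31, 3.18 and 2.46 after fluvastatin and 1.21, 2.10 and 2.01 after MBV. PBS overlapped with each treatment, but the MBV libraries were all below the fluvastatin libraries. Between MBV and fluvastatin the log2 fold change was -0.59 (95% interval -1.16 to -0.02, unadjusted p 0.0431, FDR 0.452 in edgeR), so it did not pass after adjustment, and it was -0.37 (FDR 0.764) without the first MBV library. Against PBS it was 0.18 (FDR 0.687) for fluvastatin. For MBV it was -0.43 (FDR 0.372), ranging from -0.66 without the first PBS library to -0.09 without the third, and -0.20 without the first MBV library.

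Olfml3 encodes a secreted olfactomedin-like protein (chromosome 3, 103629538 to 103645317) and was the second most abundant member. It was 11, 12.2 and 13.3 CPM after PBS, 12, 12.4 and 10.4 after fluvastatin and 12.4, 14.4 and 12.5 after MBV. It had the narrowest interval of the members after MBV, -0.11 to 0.32 around a log2 fold change of 0.10 (FDR 0.478), and -0.29 to 0.16 around -0.07 (FDR 0.692) after fluvastatin. The MBV libraries lay just above the fluvastatin libraries (log2 difference 0.18, FDR 0.582).

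Sall1, the zinc finger transcription factor that maintains microglial identity (chromosome 8, 89753863 to 89770790), had 2.76, 3.04 and 2.96 CPM after PBS. With fluvastatin it had 2.88, 4.19 and 3.05, and after MBV 3.29, 4.02 and 4.28. The MBV libraries were all above the PBS libraries, with a log2 fold change of 0.39 (95% interval 0.04 to 0.74, FDR 0.0995). With fluvastatin the log2 fold change was 0.21 (FDR 0.450), and 0.024 (FDR 0.945) without the second fluvastatin library, the highest of the 3.

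Counting only whether libraries overlapped, 3 of 9 members did not overlap between fluvastatin and PBS (P2ry12, Gpr34 and Csf1r, all lower), where 36.6% of all genes did not. With MBV 2 of 9 did not (Gpr34 lower and Sall1 higher), where 41.3% of all genes did not. Between MBV and fluvastatin it was 2 of 9 (Fcrls lower and Olfml3 higher) and 16.4% of all genes. The comparisons after PBS share the same PBS libraries.

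The spread between replicates was uneven. The coefficient of variation over the 3 libraries of a group had a median of 7.98% over the members after PBS, 17.6% after fluvastatin and 15.4% after MBV. It was largest for Fcrls after PBS (39.3%) and for Csf1r after MBV (33.6%), where counting alone gives 12.2% and 4.29%. For P2ry12 it was 2.36% after PBS, under the 7.82% of counting, but 23.4% after fluvastatin and 22.7% after MBV. Over all but the lowest-count genes, pairs of replicates were compared by a mean chi-square per gene against the counts given by library totals. This was 3.47 to 9.36 after PBS, 9.65 to 17.1 after fluvastatin and 5.24 to 21.4 after MBV. A higher value after fluvastatin, and in part after MBV, was thus not particular to the members. After subtracting the group means, 25 of the 36 pairs of members had a correlation above 0 over the 9 libraries, with a median of 0.25 and a range from -0.75 (P2ry13 and Csf1r) to 0.76 (P2ry12 and Sall1). These points share the libraries and their scaling, so the correlations are a description.

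**Figure D3:**
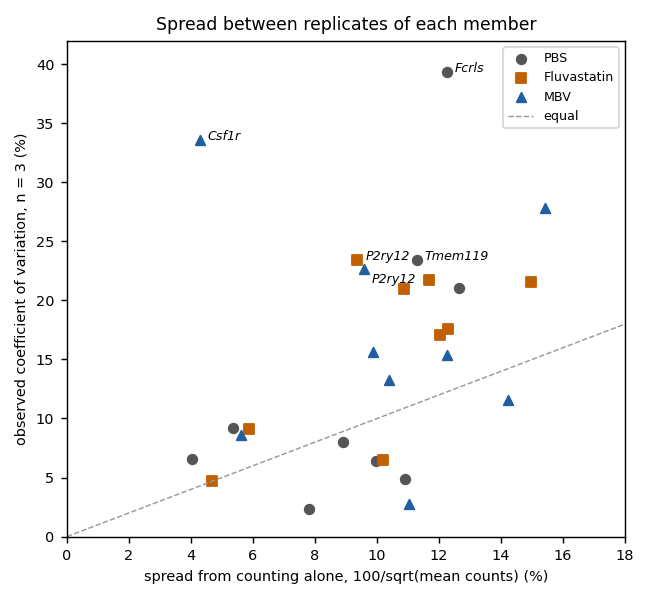
Coefficient of variation over 3 libraries (y axis, percent) against the spread that counting alone gives (x axis, percent) for each member in each group, with a dashed line of equality and names where the former is more than 2 times the latter. Fcrls after PBS at 39.3% and Csf1r after MBV at 33.6% stand farthest above the line.

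Ordered by level per kilobase of exon, the PBS means were 2.90 for Csf1r, 1.97 for Olfml3, 1.77 for P2ry12, 1.42 for Gpr34, 1.06 for P2ry13, 0.844 for Tmem119, 0.552 for Fcrls, 0.444 for Siglech and 0.429 for Sall1 (CPM per kilobase). Of the neighbours in this order, Csf1r and Olfml3, P2ry12 and Gpr34, and Gpr34 and P2ry13 had no overlapping libraries, and the others overlapped. With fluvastatin P2ry13 came before Gpr34 (1.17 and 0.969), with overlapping libraries, and after MBV too (1.28 and 1.11). With MBV Sall1 (0.567) stood above Siglech (0.417) and Fcrls (0.414), and did not overlap with Siglech.

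By the rule of the highest Pearson r to the mean standardised level of the 9 members over 9 libraries, the 8 most similar of 15047 genes were Arsj, Itgb1, Abcc4, Abcb1a, Zfp52, Dusp19, Ttbk2 and Igfbp3, with r from 0.870 to 0.920. On deviations from the group means they were Lzts3, Lix1, Hipk4, Pef1, Mast4, Rgs7bp, Stk24 and Hint1 (r from 0.976 to 0.998). The lists share no gene, and with 9 libraries and this many genes such values are a description only.

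The wider programme of resting microglia was read from 12 other genes. Calls in this and the lists that follow stand beside 19.6% of all genes tested after fluvastatin and 26.1% after MBV. With fluvastatin 5 of 12 passed an FDR of 0.05, of which 2 rose (Sparc and Bin1) and 3 fell, among them Cst3 and Tgfbr1, and the list's median log2 fold change was -0.07. With MBV 6 of 12 passed, 3 higher (Bin1, Sparc and Mertk) and 3 lower, among them Tgfbr1 and Cst3 (median 0.14). Sparc, a matrix-binding glycoprotein, was 1.52-fold higher after fluvastatin (FDR 2.87e-04) and 1.56-fold higher after MBV (FDR 7.78e-04). Cst3, which encodes cystatin C, fell by 0.33 and 0.44 on the log2 scale (FDR 0.00159 and 0.00203). Sparc had 183, Cst3 314 and Bin1 172 CPM after PBS, far above the members. Which cells of the retina these transcripts came from was not tested. Cx3cr1, the fractalkine receptor, was 8.93 ± 2.14, 8.91 ± 1.52 and 9.48 ± 0.978 CPM (FDR 0.992 and 0.742).

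Among 10 ligands, adaptors and factors around CSF1R, 0 of 10 passed after fluvastatin and 2 of 10 after MBV (medians 0.08 and 0.28), namely Cebpa (2.09-fold higher, FDR 0.0150) and Runx1 (1.58-fold higher, FDR 0.0394), transcription factors of the myeloid lineage. Both CSF1R ligands were present. Csf1 had 12.2 ± 4.67 CPM after PBS, 11.1 ± 1.79 after fluvastatin and 13.3 ± 0.687 after MBV, and Il34 had 4.96 ± 0.660, 5.19 ± 0.373 and 4.74 ± 0.361 (SD, n = 3 each). The FDR of Csf1 was 0.703 and 0.701 and that of Il34 0.772 and 0.738.

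Among 11 genes of TGF-beta signalling, Tgfb3, a ligand, rose after fluvastatin (1.46-fold, FDR 0.00252) and after MBV (1.36-fold, FDR 8.48e-04), whereas the receptor Tgfbr1 fell by 0.33 on the log2 scale with each (FDR 0.00181 and 0.00171). Itgb8, an integrin subunit that activates TGF-beta, fell with both (FDR 0.0361 and 0.0303). Nrros, which anchors latent TGF-beta on microglia, rose after MBV (1.61-fold, FDR 0.0220). In total, 3 of 11 passed after fluvastatin and 4 of 11 after MBV (medians -0.05 and 0.11). Of 8 transcription factors of macrophages and microglia, Mef2c fell after fluvastatin (log2 fold change -0.37, FDR 0.00868). With MBV 3 of 8 passed, with Mef2c lower (-0.67, FDR 0.00279) and Runx1 higher, and the list medians were 0.08 after fluvastatin and 0.01 after MBV. Mef2c had 274 CPM after PBS, far above the members, and is also a factor of neurons. Of 10 genes of purine signalling, 0 passed after fluvastatin (median -0.03) and Gnai2, a G protein subunit, and P2ry14, a UDP-glucose receptor near P2ry12, rose after MBV (median 0.16).

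**Figure D4:**
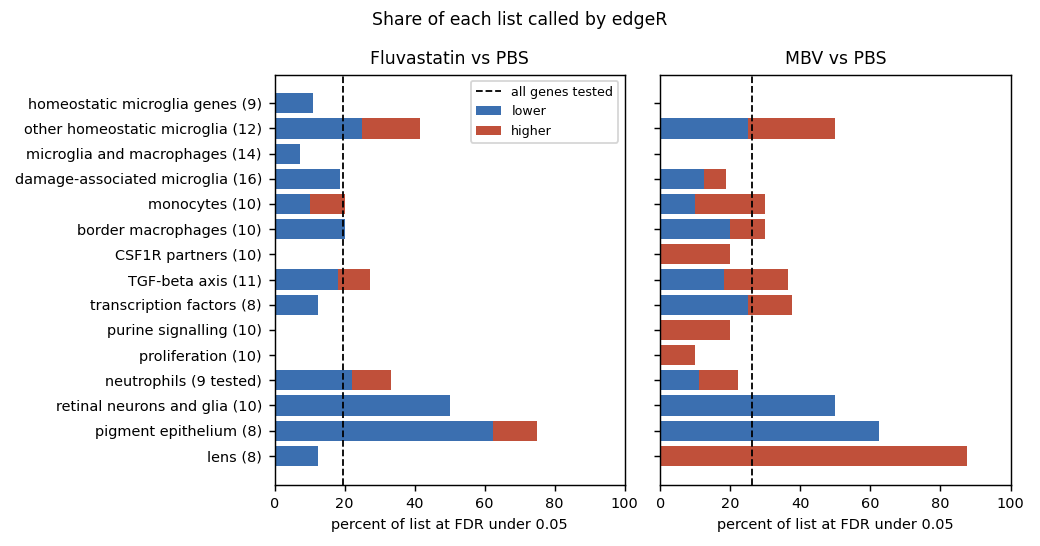
Percent of each list's genes at an FDR under 0.05 in edgeR (x axis), split into lower and higher, for fluvastatin and MBV against PBS, with the number of genes in brackets. The dashed line is the share of all genes tested, 19.6% and 26.1%, and the 9 homeostatic microglia genes lie to its left in both panels.

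The 14 genes shared by microglia and macrophages gave 1 call after fluvastatin, Ly86, which fell (FDR 0.0493), and 0 of 14 after MBV (medians -0.06 and 0.27). Genes of damage-associated microglia, 16 in all, gave 3 calls after fluvastatin, in which Gpnmb, Igf1 and Apoe fell, and 3 after MBV, in which Gpnmb and Igf1 fell and Axl rose (medians -0.15 and 0.01). Gpnmb, also a gene of pigment cells, was 49.1 CPM after PBS, 20.1 after fluvastatin and 18.3 after MBV. Of the other lists, 1 of 10 proliferation genes, Mki67, rose after MBV (1.42-fold, FDR 0.0461) and 0 of 10 passed after fluvastatin (medians 0.29 and 0.13). With fluvastatin and MBV respectively, 2 and 3 of 10 monocyte markers passed (medians -0.43 and 1.98). Of these Fn1 rose and Vcan fell with both, and F10 rose with MBV. Calls were 2 and 3 of 10 for border macrophage markers (-0.84 and -0.62), all lower except Siglec1 with MBV. Neutrophil markers gave 3 and 2 of 9 (-0.21 and 0.41), where Mmp9 rose with both and the other calls were lower. For cells outside the myeloid lineage it was 5 and 5 of 10 for retinal neurons and glia (-0.22 and -0.37), all lower. For pigment epithelium it was 6 and 5 of 8 (-1.71 and -1.97), all lower except Rgr, which rose with fluvastatin. Lens markers gave 1 and 7 of 8 (1.34 and 5.34). The lens call with fluvastatin, Bfsp2, was lower, and those with MBV were higher. Between MBV and fluvastatin none of the genes on the 14 lists passed an FDR of 0.05 in edgeR.

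**Figure D5:**
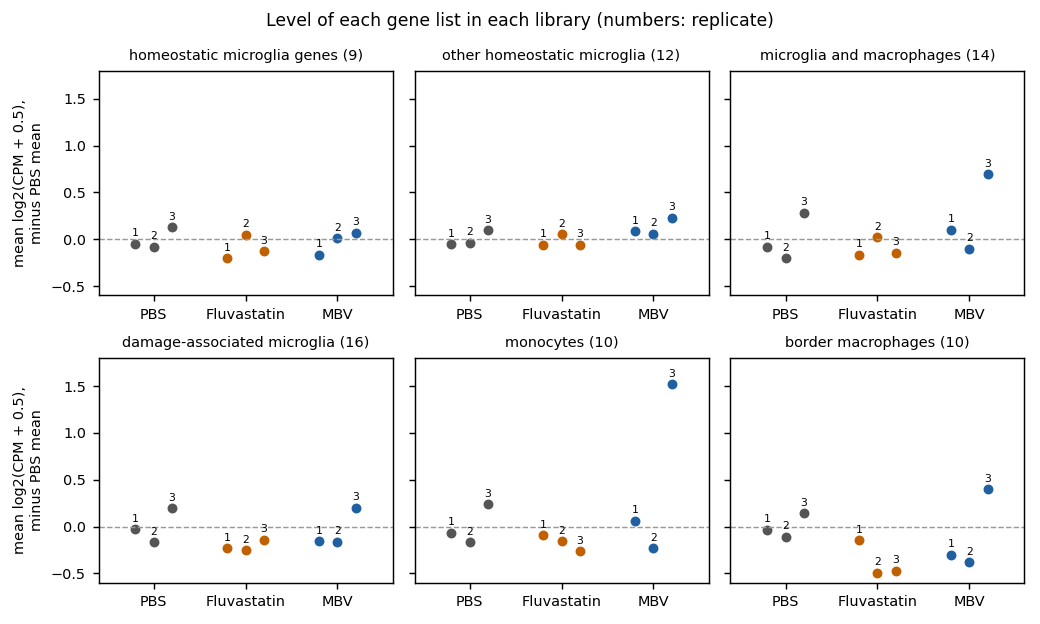
Mean of log2(CPM + 0.5) over the genes of 6 lists in each library, minus the mean of the PBS libraries (y axis, log2 units), with the replicate number over each point. The homeostatic microglia genes lie between 2.17 and 2.5 before the PBS mean is taken off. The third MBV library is the highest point for monocytes, for microglia and macrophages, for border macrophages and for other homeostatic microglia.

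Summed over the members, the level was 54.7, 55.1 and 61.9 CPM after PBS, 49.1, 56.4 and 49.9 after fluvastatin and 52.1, 55.9 and 66.9 after MBV. On the mean log2(CPM + 0.5) scale the range was 2.29 to 2.5 after PBS, 2.17 to 2.42 after fluvastatin and 2.20 to 2.44 after MBV, and the 3 ranges overlapped. The monocyte markers on the same scale reached 2.56 in the third MBV library and lay between 0.775 and 1.27 in all 8 others. That library was also the highest for the microglia and macrophage genes (2.84) and the other homeostatic microglia genes (4.28). So it was for border macrophage markers (1.01) and neutrophil markers (0.474).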

How the data were processed

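Total RNA of whole retinae was sequenced by the study. Per the labels and the study's methods, CLC Genomics Workbench and the GRCm39 build were used by the authors, who deposited 4 tables of raw counts for each gene, not normalized, together with log2 fold changes, p-values and FDRs of their own comparisons, which were not used. The counts of 9 named libraries were taken from 3 tables, and a repeat of 9 columns in another table held the same values. A further 6 columns named no library and were used in no step, so the planned comparisons with the combined treatment were not run.

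Genes counted in 1 or more of 6 libraries entered each comparison, with TMM factors computed on those 6. They were tested in a fit of 2 groups by edgeR 4.0.16 (R 4.3.3, quasi-likelihood, Benjamini-Hochberg over all genes). Standard errors and 95% intervals were taken from the same fit. Levels are TMM-scaled CPM, with factors of 0.987 to 1.03 computed over all 9 libraries. Levels per kilobase use the joined exons of GENCODE mouse release 39 (GRCm39), which held 99.37% of the gene IDs. DESeq2 1.42.0, other scalings and filters, a replicate term and leaving out libraries were the alternatives. Figures were drawn with matplotlib 3.10.9. On simulated counts with 200 genes changed by 2-fold, 199 to 200 were recovered with at most 14 false calls. The changed genes were drawn above a floor of mean counts, and all genes shared a common dispersion. The simulation thus does not tell how often smaller changes, or members with few counts or a wide spread, would be called. A gene at 3 counts or fewer is at the limit of detection, and no member was. Counting errors cover counting only, as reads carry no molecular identifiers. p-values measure the spread between these samples, which the labels do not tie to separate animals.

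The members and lists were chosen with earlier results of these data known. All 9 members were named in every comparison, and other genes where they passed an FDR of 0.05, at most the 4 with the smallest FDR for each list and comparison with values, beside markers of monocytes, Cx3cr1, Csf1, Il34 and overlapping genes, which were added after the values were seen. Spi1, Irf8, Runx1, Tgfbr1, Tyrobp and Trem2 are on 2 lists. Some genes on the lists are counted there but not reported by name here.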

Additional observations from a re-analysis of the deposited data

How the results depend on the processing

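Of 297 recomputed log2 fold changes of members, 267 kept their direction and their side of an FDR of 0.05. With fluvastatin 1 member, Gpr34, was called, and 0 in DESeq2 or with a fold of at least 2. Leaving out 1 library gave 0 to 1 members with fluvastatin (Gpr34 stayed below 0 throughout, from -0.74 to -0.43, with an FDR from 0.0209 to 0.170), and 0 to 1 with MBV, where P2ry12 passed without MBV replicate 2. Between MBV and fluvastatin 0 to 0 were called. With MBV replicate 3 left out Csf1r turned to -0.24 with MBV and to -0.0026 against fluvastatin. Turns of direction otherwise touched members with a log2 fold change from -0.10 (Siglech with MBV) to 0.18 (Fcrls with fluvastatin) in the main fit. For Tmem119 these were, against fluvastatin, -0.00093 in DESeq2, -0.13 without fluvastatin replicate 3 and -0.13 without MBV replicate 3. With fluvastatin they were -0.03 and -0.14 without PBS replicates 1 and 2, and -0.01 and -0.11 without fluvastatin replicates 1 and 2. With MBV they were 0.0045 in DESeq2, 0.028 without TMM, 0.0045 with a minimum of 10 counts in 2 libraries, 0.0071 in 1 fit of all 9 libraries, 0.0041 with the replicate block, and 0.19, 0.08 and 0.04 without PBS replicate 3, MBV replicate 1 and MBV replicate 2. P2ry12 against fluvastatin gave -0.16 and -0.18 without fluvastatin replicate 1 and MBV replicate 2. Fcrls with fluvastatin gave -0.054 without PBS replicate 1, Olfml3 0.0042 and 0.0065 without PBS replicate 3 and fluvastatin replicate 3, and Siglech with MBV 0.038 without PBS replicate 1. With 1 library left out, the log2 fold changes of these genes ran up to 0.17 for P2ry12, 0.46 for Csf1r and 0.12 for Tmem119 against fluvastatin, to 0.20 for Tmem119 and 0.52 for Fcrls with fluvastatin, to 0.23 for Csf1r with MBV, and down to -0.25 for Siglech with MBV. The cause of these turns was not tested.

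Over all genes, the 11 calls between MBV and fluvastatin were 122 in DESeq2, 5 with a minimum of 10 counts, 27 in 1 fit of all 9 libraries, 0 with the replicate block and 0 to 197 with 1 library left out. Without TMM, calls with MBV were 2589 higher and 2101 lower, against 2271 and 2666. Leaving out PBS replicate 1 gave 1726 calls with fluvastatin, against 3687, and 2711 with MBV, against 4937, and leaving out fluvastatin replicate 2 gave 2113 with fluvastatin. In their deviations from the group means, same-numbered libraries correlated from -0.37 to 0.16, and libraries of different number from -0.28 to 0.35. Such deviations cancel within a group, so they cannot tell whether the replicate numbers paired the samples. With the replicate block the members called were 1 with fluvastatin, 0 with MBV and 0 between both, as without it. The comparisons and main effects that need the combined treatment were not run. The 95% intervals were up to 1.45 log2 units wide (Fcrls with MBV), and how much of their width depth and the spread between samples each give was not tested.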
